A study of Mus musculus and Rattus norvegicus with 24 samples.

Results

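The genes described here are 8 that make, move, destroy or read retinoic acid: Stra6, Crabp2, Rdh10, Dhrs3, Aldh1a1, Aldh1a2, Cyp26b1 and Rarb. They were chosen from the tables by gene name, with measured values of these same data in view, so their levels, differences and adjusted p-values are given as a description and support nothing. All 8 had a row in the mouse table of 54532 genes and in the rat table of 17327 genes. Of these, 6 passed the filter on low counts in the mouse hearts and 5 passed the filter on low values in the rat cells.

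Retinoic acid is a small lipid hormone made from vitamin A (retinol) inside cells. Alcohol and short-chain dehydrogenases convert retinol to retinal, retinal dehydrogenases oxidise retinal irreversibly to retinoic acid, and CYP26 enzymes break retinoic acid down. Retinoic acid binds nuclear receptors (RAR, paired with RXR) on DNA and so changes transcription. In the embryo it shapes the inflow side of the heart, with Aldh1a2 as the main producing enzyme, and in the adult heart Aldh1a2 is known as a gene of epicardial and other mesenchymal cells.

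The best known direct target of the receptors is Rarb, whose promoter carries a response element of a pair of hexamers facing the same way, spaced by 5 bases. The promoter sequence is shown for Rarb because it holds that element, and for Cyp26b1 and Aldh1a2 because their levels ranged most widely in the hearts. Each is the 250 bases before the RefSeq transcription start on GRCm38.p6, written 5′ to 3′ on the gene's strand. Capitals mark a direct repeat of hexamers, with everything else in lower case. The hexamers searched, on both strands, were AGGTCA and its variant GGGTCA, then AGTTCA and its variant GGTTCA. The Rarb stretch lies at chr14:16575477-16575726 (minus strand), the Cyp26b1 stretch at chr6:84593811-84594060 (minus strand) and the Aldh1a2 stretch at chr9:71215539-71215788 (plus strand).
Rarb: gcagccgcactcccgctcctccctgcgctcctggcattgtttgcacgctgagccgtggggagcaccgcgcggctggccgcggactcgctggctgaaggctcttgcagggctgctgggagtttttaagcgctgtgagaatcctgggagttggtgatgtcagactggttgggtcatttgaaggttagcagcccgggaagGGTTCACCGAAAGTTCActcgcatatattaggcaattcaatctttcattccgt
Cyp26b1: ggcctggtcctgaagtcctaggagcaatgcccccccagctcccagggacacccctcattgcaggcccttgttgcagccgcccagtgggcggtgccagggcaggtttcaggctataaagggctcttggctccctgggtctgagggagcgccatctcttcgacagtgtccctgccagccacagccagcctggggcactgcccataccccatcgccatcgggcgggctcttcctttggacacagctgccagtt
Aldh1a2: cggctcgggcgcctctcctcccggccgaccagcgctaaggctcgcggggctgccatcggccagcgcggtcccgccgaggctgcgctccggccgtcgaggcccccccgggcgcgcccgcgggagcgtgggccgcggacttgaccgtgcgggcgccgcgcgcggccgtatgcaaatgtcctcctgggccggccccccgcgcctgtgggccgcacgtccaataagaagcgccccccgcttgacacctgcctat
In Rarb the repeat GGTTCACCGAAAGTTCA covers chr14:16575513-16575529, from 53 to 37 bases before the start. RefSeq gave 12 start windows for 6 of the 8 genes, each reaching from 250 bases before the start to 50 after it, and the Rarb window was the single one with a repeat at a spacing of 1, 2 or 5 bases. Of all 32851 windows of that length, 0.0974% held a repeat spaced by 5 bases, 0.222% by 1 base and 0.268% by 2 bases. The ATF4 motif TGATGNAA, searched on both strands, was in 3.97% of all windows and in none of the 12. The GC content of the stretch shown was 77.6% for Aldh1a2, 64.8% for Cyp26b1 and 58.0% for Rarb.

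The mouse data are RNA-seq of 18 heart libraries in 6 groups of 3. The titles name a genotype, ctrl or cKO, and an operation, either sham or TAC (transverse aortic constriction), in which a band narrows the aorta so that the left ventricle pumps against pressure, lasting 3 or 7 days. The title of the series names ATF4, a transcription factor of the stress response. The label cKO usually stands for conditional knockout, but the labels do not spell it out and name no deleted gene; Atf4 was lower in every cKO library than in every ctrl library. The mouse samples also carry a label that reads overexpression, at odds with ctrl and cKO in titles and design, and groups were taken from the titles. Strain, age, sex, the driver of the deletion and whether each library is 1 animal are not stated by the labels. The rat data are 6 libraries of ventricular myocytes of newborn rats (NRVM) grown in bromodeoxyuridine, which holds back dividing cells; 3 received an adenovirus with GFP (adGFP) and 3 one with ATF4 (adATF4), in medium without serum. Nothing in the labels says that replicates came from separate animals or cultures, so a p-value here reflects only how these libraries vary, part of which may be technical.

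Mouse libraries held 15106975 to 18112798 counts. Atf4 was at 21.0 to 31.3 CPM (counts relative to TMM-scaled library size) in the 9 cKO libraries and at 66.2 to 91.0 CPM in 8 of the 9 ctrl libraries. The library labelled ctrl sham replicate 3 had 34.3 CPM of Atf4 and 381 counts of Cacna1i, a calcium channel gene with 0 to 4 counts in the other ctrl libraries and 303 to 1500 in the cKO libraries. Its genotype label is thus in doubt. Values without it are also given for the TAC differences of Dhrs3, Aldh1a2 and Cyp26b1 in ctrl hearts and for some further comparisons. Other values that use ctrl sham, such as marker calls, correlations and differences of single other retinoid genes, are given with it only. Another 2 libraries stood apart. On the first principal component, ctrl TAC 3 d replicate 3 lay at 87.7, with the other libraries between -43.0 and 54.5; 10.6% of its counts were mitochondrial, against 14.5% to 23.0% elsewhere. On the second, cKO TAC 3 d replicate 2 lay at -55.8.

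The retinoid entry and carrier genes Stra6 (ENSMUSG00000032327, chr9:58063788-58153996) and Crabp2 (ENSMUSG00000004885, chr3:87948666-87953376), both on the plus strand of GRCm38, were barely detected in the hearts. Stra6, the cell-surface receptor that takes up retinol from its plasma carrier, had 1 to 12 counts per library, and Crabp2, which carries retinoic acid to its receptors in the nucleus, had 0 to 13. Both failed the count filter and were not tested. For Crabp2, 4 libraries were at 0 counts. The limit that a count of 0 allows, 3 counts, corresponds to 0.143 to 0.225 CPM over the 18 libraries. The ctrl TAC 3 d libraries held 8, 5 and 6 counts of Crabp2 and the ctrl sham libraries 1, 0 and 1, while cKO TAC 3 d held 1, 13 and 1. The 13 counts came from the library that stood apart on the second component. The span of Stra6 shares 55036 bases with that of Ccdc33 on the opposite strand. Overlap of exons was not examined and the strand setting of the counting is not given, so part of its few counts could be those of Ccdc33.

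Rdh10 and Dhrs3 act on the same reversible step in opposite directions: Rdh10 oxidises retinol to retinal and Dhrs3 reduces retinal back. On GRCm38, Rdh10 (ENSMUSG00000025921) lies at chr1:16105774-16133734 and Dhrs3 (ENSMUSG00000066026) at chr4:144892827-144928209, both on the plus strand. Dhrs3 was the most abundant of the 8 per transcript length in ctrl sham hearts, at 24.1 ± 2.67 FPKM (SD, n = 3), and Rdh10 was at 1.86 ± 0.0577 FPKM. In ctrl hearts Dhrs3 was at 74.3, 76.4 and 62.2 CPM after sham, 43.5, 46.2 and 60.8 CPM after TAC for 3 days, and 42.4, 43.0 and 51.0 CPM after TAC for 7 days. Every TAC library of ctrl hearts lay below every ctrl sham library. The highest of the 3-day libraries was the one that stood apart, and it lay just under the lowest sham library, the one with the doubtful label. In cKO hearts Dhrs3 was at 63.5, 62.0 and 77.7 CPM after sham, 63.0, 54.1 and 55.6 CPM at 3 days, and 56.7, 49.6 and 47.6 CPM at 7 days. The 7-day cKO libraries lay below the sham cKO libraries, and the 3-day ones overlapped them. In bulk tissue, fewer cells of a type and less RNA per cell cannot be told apart, here and in every result that follows.

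The log2 fold change of Dhrs3 against sham was -0.50 ± 0.14 (SE) at 3 days in ctrl hearts (edgeR adjusted p = 0.0131), -0.64 ± 0.14 at 7 days in ctrl hearts (edgeR adjusted p = 0.0139) and -0.40 ± 0.14 at 7 days in cKO hearts (edgeR adjusted p = 0.0446). At 3 days in cKO hearts it was -0.23 ± 0.14 (edgeR adjusted p = 0.665). Without the library labelled ctrl sham replicate 3 the ctrl values were -0.59 and -0.73, both called. The differences rested on the scaling and on single libraries: with library sizes alone the 3-day ctrl value was -0.25 (edgeR adjusted p = 0.253), and the 7-day cKO value was -0.27 (edgeR adjusted p = 0.251). Without ctrl sham replicate 2 the 3-day ctrl value was -0.44 (edgeR adjusted p = 0.0548), without ctrl TAC 3 d replicate 1 it was -0.40 (edgeR adjusted p = 0.0616), and in a fit of the 2 groups alone it was -0.49 (edgeR adjusted p = 0.0637). The 7-day ctrl value had an edgeR adjusted p of 0.0697 without ctrl sham replicate 1, 0.0562 without ctrl sham replicate 2, 0.0648 without ctrl TAC 7 d replicate 1 and 0.0542 without ctrl TAC 7 d replicate 2. The 7-day cKO value missed the threshold without any 1 of cKO sham replicates 1, 2 and 3 and cKO TAC 7 d replicates 2 and 3, with edgeR adjusted p from 0.0579 to 0.190. Rdh10 stayed between 6.31 and 9.75 CPM in all 18 libraries, a span of 1.54-fold. Its log2 differences ran from -0.21 to 0.22 over the 10 mouse comparisons, and its smallest adjusted p by edgeR was 0.342.

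**Figure D1:**
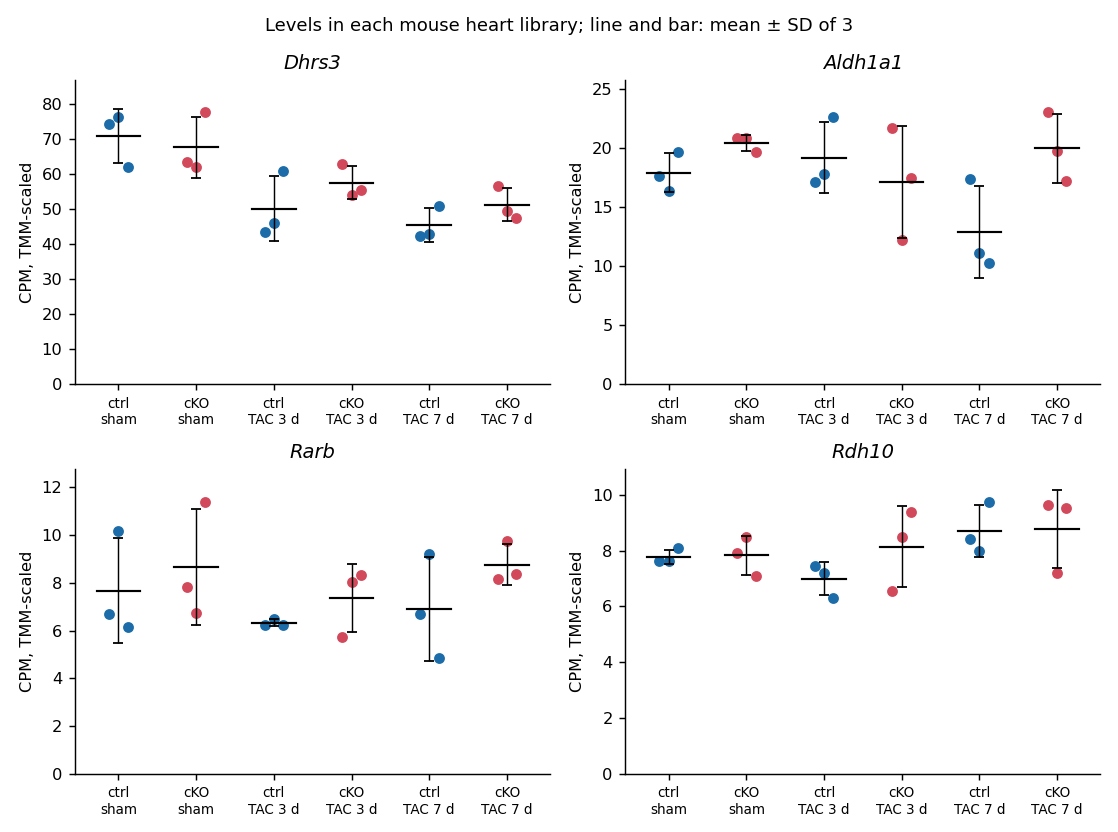
CPM (TMM-scaled, linear axis from 0) of Dhrs3, Aldh1a1, Rarb and Rdh10 in each of the 18 mouse heart libraries; points are libraries, and lines and bars are the mean ± SD of 3. Dhrs3 sat between 62.2 and 76.4 in ctrl sham and between 42.4 and 60.8 in ctrl TAC libraries, while Rdh10 stayed between 6.31 and 9.75 throughout.

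Aldh1a1 and Aldh1a2 are retinal dehydrogenases, the enzymes that make retinoic acid. Aldh1a1 (ENSMUSG00000053279) lies at chr19:20492715-20643462 and Aldh1a2 (ENSMUSG00000013584) at chr9:71215789-71296243, both on the plus strand of GRCm38. Aldh1a2 was the lower of the pair per transcript length in ctrl sham hearts, at 1.22 ± 0.288 FPKM against 3.61 ± 0.326 FPKM for Aldh1a1 (SD, n = 3). In ctrl hearts Aldh1a2 was at 3.48, 2.63 and 2.20 CPM after sham, at 31.8, 15.5 and 45.2 CPM after TAC for 3 days, and at 28.3, 8.49 and 13.3 CPM after TAC for 7 days. No TAC library of ctrl hearts overlapped the sham range, and the lowest of them lay above the highest sham library. In cKO hearts Aldh1a2 was at 4.80, 7.39 and 4.11 CPM after sham, at 8.17, 4.06 and 14.9 CPM at 3 days, and at 29.2, 22.3 and 30.1 CPM at 7 days. The cKO libraries overlapped sham at 3 days and stood clear of it at 7 days.

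Against sham, Aldh1a2 was 11.2-fold higher at 3 days in ctrl hearts, with a log2 fold change of 3.48 ± 0.51 (edgeR adjusted p = 0.000397), and 6.06-fold higher at 7 days, with 2.60 ± 0.51 (edgeR adjusted p = 0.0105). In cKO hearts it was 4.99-fold higher at 7 days, with a log2 fold change of 2.32 ± 0.48 (edgeR adjusted p = 0.00477), and at 3 days the value was 0.75 ± 0.48 (edgeR adjusted p = 0.698). That 3-day cKO value depended on single libraries, at 0.18 without replicate 3 and 1.09 without replicate 2 of cKO TAC 3 d, and it missed the threshold in all 6 fits that left out 1 library. Without ctrl sham replicate 3 the ctrl values were 3.34 at 3 days (edgeR adjusted p = 0.00338) and 2.46 at 7 days (edgeR adjusted p = 0.0432). The 7-day ctrl difference missed the threshold without ctrl sham replicate 1 (2.79, edgeR adjusted p = 0.0539) and without ctrl TAC 7 d replicate 1 (1.98, edgeR adjusted p = 0.0551).

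Between genotypes, Aldh1a2 was 3.37-fold lower in cKO than in ctrl hearts after TAC for 3 days, with a log2 fold change of -1.75 ± 0.46 (edgeR adjusted p = 0.0168), and no library of the one group overlapped the other. That difference was -1.40 without ctrl TAC 3 d replicate 3 (edgeR adjusted p = 0.0785), -1.41 without cKO TAC 3 d replicate 2 (edgeR adjusted p = 0.0762), -1.68 without cKO TAC 3 d replicate 1 (edgeR adjusted p = 0.0552) and -1.06 without both libraries that stood apart (edgeR adjusted p = 0.229). In a fit of the 2 groups alone it was -1.77 (edgeR adjusted p = 0.124). The authors' deposited table gives -1.78 for it, with an adjusted p of 0.00563. After sham the value was 0.98 ± 0.53 (edgeR adjusted p = 0.999), and 0.84 without ctrl sham replicate 3. After TAC for 7 days it was 0.70 ± 0.44 (edgeR adjusted p = 0.431). The genotype difference at 7 days was higher than that at 3 days by 2.45 ± 0.63 on the log2 scale (edgeR adjusted p = 0.0155), a comparison added after the data were seen. That value was 1.75 without both libraries that stood apart (edgeR adjusted p = 0.0622).

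Marker genes of activated fibroblasts moved with Aldh1a2. The summed level of the 8 markers was 126 to 133 CPM in ctrl sham, 130 to 178 CPM in cKO sham, 913 to 6426 CPM in ctrl TAC 3 d, 236 to 353 CPM in cKO TAC 3 d, 258 to 762 CPM in ctrl TAC 7 d and 812 to 2345 CPM in cKO TAC 7 d. By edgeR, all 8 were higher at 3 days in ctrl hearts than after sham, and all 8 were lower in cKO than in ctrl hearts at 3 days. Of all tested genes, 27.2% were called in the first of these comparisons and 17.1% in the second. The 8 general fibroblast markers summed to 1829 to 1958 CPM in ctrl sham and 2035 to 2244 CPM in cKO sham. At 3 days of TAC they summed to 1938, 2019 and 5177 CPM in ctrl replicates 1, 2 and 3, and 2032 to 2512 CPM in cKO. At 7 days they summed to 1191 to 1597 CPM in ctrl and 1680 to 2275 CPM in cKO. By edgeR, 5 of these 8 were higher and 1 lower at 3 days in ctrl hearts than after sham. Between genotypes at 3 days, 1 of them was higher and 3 were lower in cKO than in ctrl hearts. Epicardial and mesothelial markers summed to 3.61 to 9.73 CPM, with 1 of 8 passing the count filter. Macrophage markers summed to 144 to 172 CPM in ctrl sham, 152 to 171 CPM in cKO sham, 277 to 651 CPM in ctrl TAC 3 d, 207 to 283 CPM in cKO TAC 3 d, 181 to 278 CPM in ctrl TAC 7 d and 303 to 309 CPM in cKO TAC 7 d. By edgeR, 8 of 8 macrophage markers were higher at 3 days in ctrl hearts than after sham, and 6 of 8 were lower in cKO than in ctrl hearts at 3 days. Ventricular myocyte markers summed to 73920 to 81426 CPM in ctrl sham, 68068 to 75325 CPM in cKO sham, 42744 to 69598 CPM in ctrl TAC 3 d, 70672 to 79547 CPM in cKO TAC 3 d, 66936 to 78176 CPM in ctrl TAC 7 d and 51488 to 63343 CPM in cKO TAC 7 d. Between genotypes at 3 days 1 of these 8 markers was higher in cKO hearts by edgeR and 0 were lower. In ctrl TAC 3 d, the 6426, 651 and 42744 CPM all came from replicate 3, the library that stood apart. Replicates 1 and 2 held 1343 and 913 CPM of activated fibroblast markers and 336 and 277 CPM of macrophage markers. Their ventricular myocyte markers summed to 63147 and 69598 CPM. The part of these cell types in the Aldh1a2 values was not tested.

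Aldh1a1 stayed between 10.3 and 23.0 CPM. Its lowest values were 10.3 and 11.1 CPM, in ctrl TAC 7 d replicates 3 and 2, where the other library of the group had 17.4 CPM, and cKO TAC 7 d had 23.0, 19.7 and 17.2 CPM. The log2 difference between cKO and ctrl at 7 days was 0.63 ± 0.21 (edgeR adjusted p = 0.154). That value passed the threshold without the count filter, at 0.62 (edgeR adjusted p = 0.0147). The genotype effect at 7 days exceeded that at 3 days by 0.79 ± 0.29, which missed the threshold (edgeR adjusted p = 0.0615). The same difference passed it by DESeq2 (0.79, adjusted p = 0.0423) and by edgeR with library sizes alone (1.10, adjusted p = 0.0291), without the filter (0.79, adjusted p = 0.0127) and with the replicate block (0.83, adjusted p = 0.0450). It also passed by edgeR without replicate 2 of ctrl TAC 3 d (0.86, adjusted p = 0.0464), replicate 1 of cKO TAC 3 d (0.99, adjusted p = 0.0334), replicate 1 of ctrl TAC 7 d (1.08, adjusted p = 0.0133) or replicate 3 of cKO TAC 7 d (0.90, adjusted p = 0.0453). The span of Aldh1a1 overlaps that of the antisense transcript C730002L08Rik over 59616 bases. Overlap of exons was not examined and the strand setting is not given, so part of its counts could be from that transcript.

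Cyp26b1 (ENSMUSG00000063415, chr6:84571414-84593908, minus strand of GRCm38) encodes an enzyme that hydroxylates retinoic acid for removal. Among the 6 members that passed the filter it had the widest range, 1.09 to 101 CPM. In ctrl hearts it was at 70.2, 101 and 35.7 CPM after sham, at 3.87, 1.09 and 1.96 CPM after TAC for 3 days, and at 2.89, 8.23 and 6.88 CPM after TAC for 7 days. All 6 TAC libraries of ctrl hearts lay far below the lowest sham library. In cKO hearts Cyp26b1 was at 23.7, 3.55 and 17.6 CPM after sham, at 3.93, 14.8 and 4.44 CPM at 3 days, and at 5.07, 6.48 and 4.85 CPM at 7 days. The cKO sham libraries spread widely, and their lowest value lay below every cKO TAC library.

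**Figure D2:**
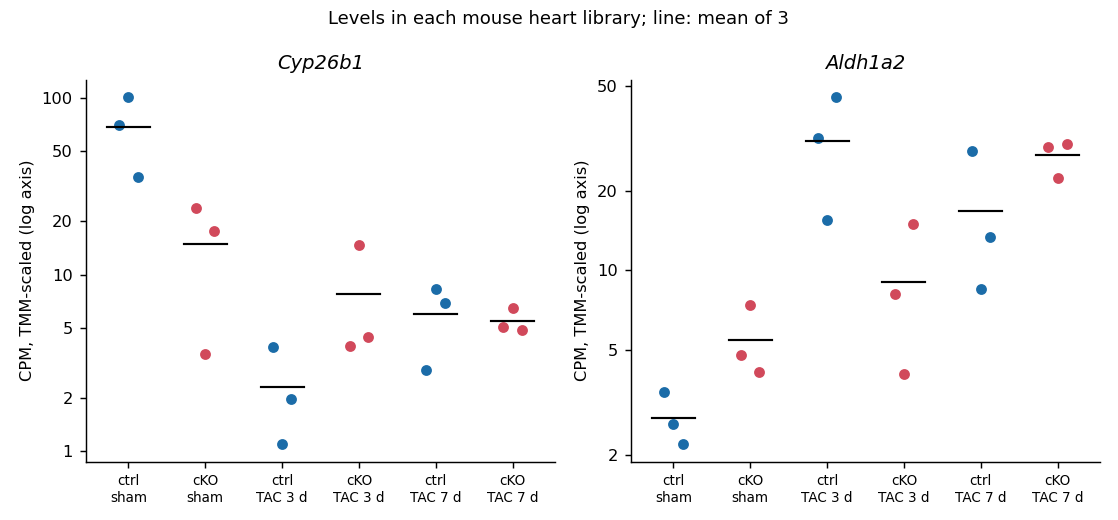
CPM (TMM-scaled, log axis) of Cyp26b1 and Aldh1a2 in each mouse heart library; points are libraries and lines the mean of 3. For Cyp26b1 the 3 ctrl sham libraries sit between 35.7 and 101 and every TAC library at 14.8 or below, while for Aldh1a2 the ctrl sham libraries sit at 3.48 or below and the ctrl TAC 3 d libraries between 15.5 and 45.2.

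Cyp26b1 was 30.1-fold lower at 3 days of TAC than after sham in ctrl hearts, with a log2 fold change of -4.91 ± 0.70 (edgeR adjusted p = 0.000318), and 11.6-fold lower at 7 days, with -3.53 ± 0.64 (edgeR adjusted p = 0.00788). Without the library labelled ctrl sham replicate 3 these values were -5.22 (edgeR adjusted p = 0.00143) and -3.85 (edgeR adjusted p = 0.0150). In cKO hearts the values were -0.98 ± 0.61 at 3 days (edgeR adjusted p = 0.690) and -1.45 ± 0.62 at 7 days (edgeR adjusted p = 0.103). Leaving out 1 library moved the 3-day cKO value from -1.83, without replicate 2 of cKO TAC 3 d, to -0.47, without replicate 1 of cKO sham, and it passed the threshold in none of these fits. The 7-day cKO value passed the threshold without cKO sham replicate 2, the low sham library, at -1.92 (edgeR adjusted p = 0.0375). It also passed without the count filter, at -1.44 (edgeR adjusted p = 1.73e-05).

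After sham, Cyp26b1 was at 69.1 ± 32.9 CPM in ctrl and 15.0 ± 10.3 CPM in cKO hearts (SD, n = 3). The groups did not overlap, and the log2 difference of cKO from ctrl was -2.21 ± 0.59 with an unadjusted p of 0.00167 and an edgeR adjusted p of 0.833, among 3 genes called in all. Without the library labelled ctrl sham replicate 3 it was -2.52 (edgeR adjusted p = 0.778). Without the count filter it passed the threshold, at -2.21 (edgeR adjusted p = 1.18e-10). At 3 days of TAC the difference was 1.73 ± 0.69 (edgeR adjusted p = 0.0915), and it was 0.87 without cKO TAC 3 d replicate 2 (edgeR adjusted p = 0.458). The authors' deposited table gives 1.73 for it, with an adjusted p of 0.0476. Without the count filter the 3-day difference passed, at 1.72 (edgeR adjusted p = 3.58e-06). At 7 days the groups overlapped, with -0.12 ± 0.65 (edgeR adjusted p = 0.951).

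The response to TAC itself was compared between genotypes by the interaction term. For Cyp26b1 the 3-day response in cKO hearts was less negative than in ctrl hearts by 3.93 ± 0.90 on the log2 scale (edgeR adjusted p = 0.0529), and for Aldh1a2 it was lower by 2.73 ± 0.70 (interaction -2.73, edgeR adjusted p = 0.0693). Both just missed the threshold by edgeR. DESeq2 gave adjusted p of 0.00626 for Cyp26b1 and 0.00265 for Aldh1a2, and both also passed by edgeR with library sizes alone, without the count filter, without ctrl TAC 3 d replicate 2 and without cKO TAC 3 d replicate 3. Without the libraries that stood apart they did not pass. Leaving out replicate 2 of cKO TAC 3 d gave 3.08 for Cyp26b1 (edgeR adjusted p = 0.144) and -2.39 for Aldh1a2 (edgeR adjusted p = 0.141), and leaving out replicate 3 of ctrl TAC 3 d gave 3.80 (edgeR adjusted p = 0.0998) and -2.38 (edgeR adjusted p = 0.135). Without ctrl sham replicate 3 the interactions were 4.25 (edgeR adjusted p = 0.0656) and -2.59 (edgeR adjusted p = 0.121). At 7 days they were 2.08 ± 0.87 for Cyp26b1 (edgeR adjusted p = 0.891) and -0.28 ± 0.69 for Aldh1a2 (edgeR adjusted p = 0.951). Without ctrl sham replicate 3 the 7-day values were 2.4 for Cyp26b1 and -0.14 for Aldh1a2. Without the count filter the 7-day interaction of Cyp26b1 passed, at 2.08 (edgeR adjusted p = 0.000359).

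Rarb (ENSMUSG00000017491, chr14:16430839-16819156, minus strand of GRCm38), a retinoic acid receptor gene that is itself a direct target of the hormone, stayed between 4.84 and 11.4 CPM. In ctrl hearts it was at 6.68, 10.2 and 6.14 CPM after sham, 6.25, 6.49 and 6.22 CPM at 3 days and 6.68, 9.21 and 4.84 CPM at 7 days. In cKO hearts it was at 7.85, 6.76 and 11.4 CPM after sham, 5.74, 8.04 and 8.33 CPM at 3 days and 8.15, 9.74 and 8.37 CPM at 7 days. Each group overlapped its neighbour in the order of means. The log2 differences ran from -0.28 to 0.34 over the 10 comparisons, with no edgeR adjusted p below 0.428. The Rarb row thus had no called difference in the hearts, at a precision of about ± 0.25 log2 units (SE) per comparison of 2 groups. The window with the repeat lies inside the span of this row, whose 5′ end on the minus strand is at 16819156. Counts are per gene, so transcripts from the start shown were not separated from those of any other start. The span of Rarb overlaps Top2b over 4624 bases and Gm48162 over 4859 bases on the opposite strand, so part of its counts could be theirs.

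Ranked by mean level, Cyp26b1 was highest in ctrl sham, followed by cKO sham, cKO TAC 3 d, ctrl TAC 7 d, cKO TAC 7 d and ctrl TAC 3 d. Only the steps from ctrl sham to cKO sham and from cKO TAC 7 d to ctrl TAC 3 d separated neighbours without overlap. Aldh1a2 was highest in ctrl TAC 3 d, followed by cKO TAC 7 d, ctrl TAC 7 d, cKO TAC 3 d, cKO sham and ctrl sham, and the last step was the one without overlap. Over the 18 libraries the log2 levels of Cyp26b1 and Aldh1a2 had a Pearson r of -0.809, and Dhrs3 had 0.653 with Cyp26b1 and -0.655 with Aldh1a2, as a description of libraries that share their groups. The genes with the pattern most like that of Aldh1a2 were Atp8b2 (r = 0.938), Psat1 (r = 0.937), an enzyme of serine synthesis, and Vim (r = 0.932), the intermediate filament of mesenchymal cells. Those most like Cyp26b1 were Ccny (r = 0.829), Tor1aip1 (r = 0.824) and Foxo4 (r = 0.804), and those most like Dhrs3 were Plekhf1 (r = 0.862), Dnajb12 (r = 0.861) and Ypel3 (r = 0.861). For Rdh10 they were Ppm1h (r = 0.833), Trappc13 (r = 0.803) and Mtss1 (r = 0.783), for Aldh1a1 Fam189b (r = 0.842), Lztr1 (r = 0.831) and Dpysl2 (r = 0.821), and for Rarb Ranbp2 (r = 0.769), Prmt9 (r = 0.768) and Nufip2 (r = 0.733).

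**Figure D3:**
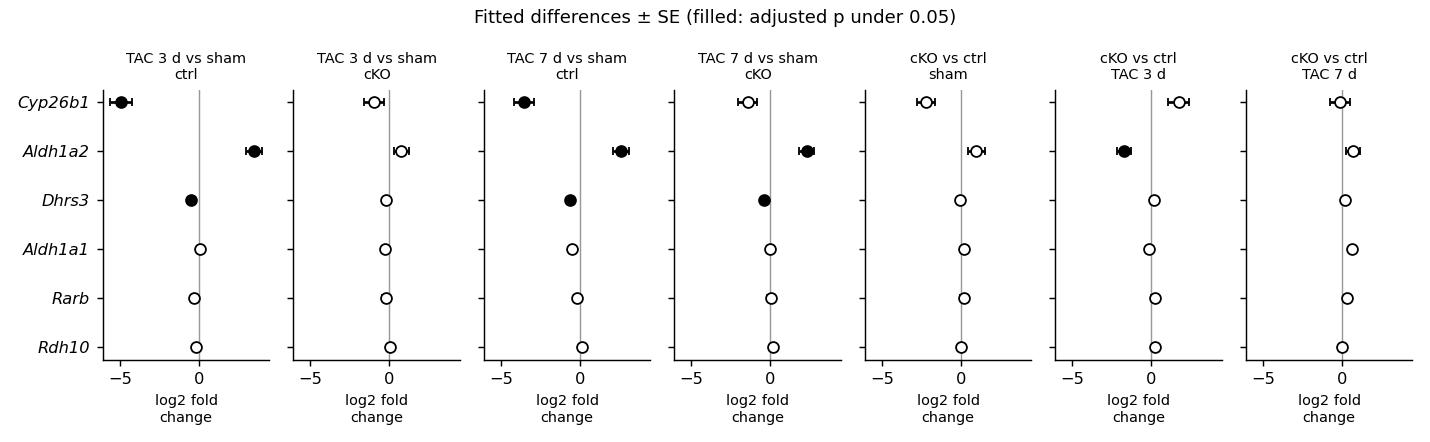
Fitted log2 fold changes ± SE of the 6 members that passed the count filter, in 7 comparisons of 2 mouse groups; filled points have an adjusted p under 0.05 by edgeR. Cyp26b1 (-4.91 and -3.53) and Aldh1a2 (3.48 and 2.60) lie far to either side of 0 for TAC in ctrl hearts, and Rarb and Rdh10 lie near 0 in every panel.

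Counted over the 6 tested members, 3 were called at 3 days of TAC in ctrl hearts (Aldh1a2 higher, Cyp26b1 and Dhrs3 lower), where 27.2% of all 15535 tested genes were called. At 7 days in ctrl hearts the same 3 were called, against 7.29% of all genes, and at 7 days in cKO hearts 2 were called (Aldh1a2 higher, Dhrs3 lower), against 21.8%. At 3 days of TAC, 1 member, Aldh1a2, was called between genotypes, against 17.1% of all genes. The same gene was the 1 called where the genotype differences at 7 and 3 days were compared, against 21% of all genes. Since the members were chosen from these data, nothing is read from these shares. Without replicate 1 of ctrl sham or of ctrl TAC 7 d the 7-day ctrl count was 1 (Cyp26b1), and the 3-day genotype count was 0 without replicate 3 of ctrl TAC 3 d and without replicate 1 or replicate 2 of the cKO group. The 7-day cKO count was 1 (Aldh1a2) without cKO sham replicate 1 or 3 or cKO TAC 7 d replicate 2 or 3.

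In the other comparisons edgeR called 0 members. Between genotypes after sham, 0.0193% of all genes were called, 1 member had an unadjusted p under 0.05 and DESeq2 called 0. Between genotypes at 7 days, 0.257% of all genes were called, 1 member had an unadjusted p under 0.05 and DESeq2 called 0. At 3 days of TAC in cKO hearts edgeR called 0% of all genes, with 1311 at an unadjusted p under 0.05 and 31 called by DESeq2; 0 members had an unadjusted p under 0.05 and DESeq2 called 0. In the 3-day interaction 0.669% of all genes were called, 2 members had an unadjusted p under 0.05 and DESeq2 called 2. In the 7-day interaction edgeR called 0% of all genes, with 682 at an unadjusted p under 0.05 and 1 called by DESeq2; 1 member had an unadjusted p under 0.05 and DESeq2 called 0.

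Around these 8 genes, 58 other retinoid genes were followed in 7 groups by role, and 37 of them passed the count filter in the hearts. In ctrl hearts at 3 days of TAC, 5 were higher and 12 lower than after sham by edgeR, with a median log2 fold change of -0.29 over the 37 against 0.00 over all genes. Of all 15535 tested genes, 27.2% were called there, 14.8% higher and 12.4% lower. With library sizes alone in place of TMM, where the median of all genes was 0.23, the split was 8 higher and 8 lower. Among the carriers 2 of 3 rose. Of the 7 other retinol and retinal oxidoreductases tested, 5 fell and 1 rose. Adh1, an alcohol dehydrogenase that oxidises retinol, fell from 13.5 ± 1.53 to 2.70 ± 0.993 CPM (SD, n = 3; log2 fold change -2.33 ± 0.46, edgeR adjusted p = 0.00213), and Dhrs4 fell by 0.67 ± 0.14 on the log2 scale (edgeR adjusted p = 0.00251).

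Of the 5 tested genes of retinoid storage and release, 3 fell in the same comparison, among them Lipe, a lipase also known for triglyceride breakdown (log2 fold change -0.79 ± 0.17, edgeR adjusted p = 0.00341). Of the 9 receptors and cofactors, 3 fell, among them Rxra, the main RXR of heart muscle (-0.60 ± 0.14, edgeR adjusted p = 0.00472). Of the 11 tested genes known to respond to retinoic acid, 2 rose and 1 fell, and neither of the 2 other retinal oxidising enzymes tested, Aldh1a3 and Cyp1b1, was called. The other CYP26 genes, Cyp26a1 and Cyp26c1, did not pass the filter. The count of 17 was 10 without ctrl sham replicate 2, 11 without ctrl TAC 3 d replicate 3 and 8 in a fit of the 2 groups alone.

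**Figure D4:**
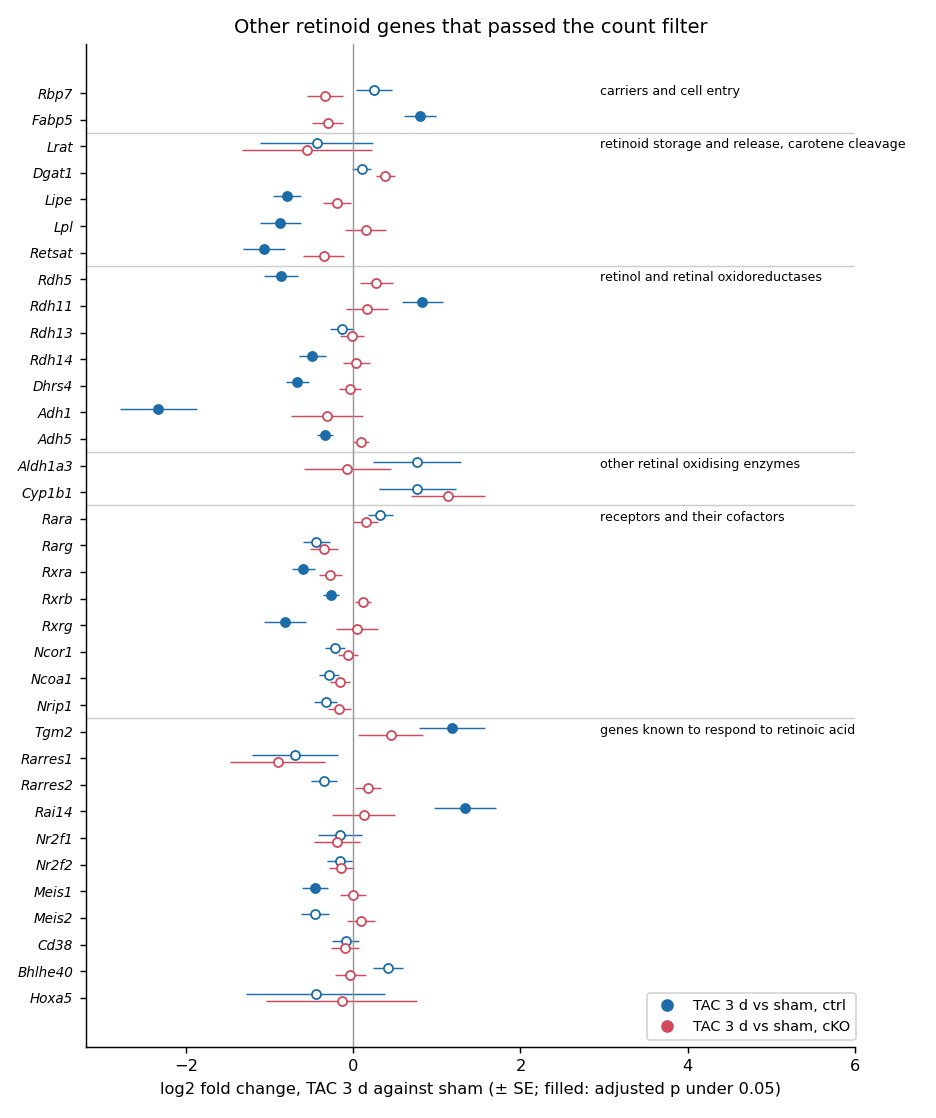
Log2 fold changes ± SE at 3 days of TAC against sham in ctrl (blue) and cKO (red) hearts, for 35 of the other retinoid genes that passed the count filter, grouped by role; filled points have an adjusted p under 0.05 by edgeR. In ctrl hearts 16 points are filled, from Adh1 at -2.33 to Rai14 at 1.34, and in cKO hearts none is.

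In cKO hearts at 3 days of TAC edgeR called 0 of the 37 and 0% of all tested genes. Of the 37, 3 had an unadjusted p under 0.05 and DESeq2 called 0. The interaction at 3 days also gave 0 of the 37 by edgeR, against 0.669% of all tested genes. Of the 37, 14 had an unadjusted p under 0.05 for the interaction and DESeq2 called 5. Between the genotypes at 3 days, 9 of the 37 were higher in cKO and 4 lower, where 17.1% of all tested genes were called. This comparison shares its ctrl TAC libraries with that of TAC against sham in ctrl hearts. With library sizes alone, where the median of all genes was -0.20, the split was 5 and 7. Rdh5, which oxidises cis-retinol, was higher in cKO at 4.65 ± 0.424 against 2.46 ± 0.319 CPM (SD, n = 3; log2 difference 0.92 ± 0.20, edgeR adjusted p = 0.00774). Fabp5, a fatty acid carrier that also binds retinoic acid, was lower by 0.76 ± 0.19 (log2 difference -0.76, edgeR adjusted p = 0.0134). Dhrs4 and Rdh14 were higher, with 0.54 ± 0.14 (edgeR adjusted p = 0.0153) and 0.61 ± 0.16 (edgeR adjusted p = 0.0173). The count of 13 depended on single libraries: it was 3 without ctrl TAC 3 d replicate 3, 2 without cKO TAC 3 d replicate 2, 6 without cKO TAC 3 d replicate 1, 7 without ctrl TAC 3 d replicate 1, and 0 without both libraries that stood apart or in a fit of the 2 groups alone.

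At 7 days of TAC, 2 of the 37 were higher and 5 lower than after sham in ctrl hearts, and 4 were higher and 9 lower in cKO hearts. Of all tested genes, 7.29% were called in ctrl and 21.8% in cKO hearts. With library sizes alone the splits were 3 and 3, and 7 and 6, with medians of all genes at 0.07 and 0.14. In ctrl hearts the coactivator Ncoa1 rose (0.53 ± 0.12, edgeR adjusted p = 0.0161), as did the corepressor Ncor1 (0.45 ± 0.12, edgeR adjusted p = 0.0337), while Lipe fell (-0.69 ± 0.17, edgeR adjusted p = 0.0244), as did Rarg, a further receptor (-0.64 ± 0.17, edgeR adjusted p = 0.0290). In cKO hearts Dhrs4, Rxra, Rxrb and Adh5 fell, with log2 fold changes of -0.76, -0.64, -0.38 and -0.40. The ctrl count of 7 was 1 without ctrl sham replicate 1 and 2 without ctrl sham replicate 2 or 3 or ctrl TAC 7 d replicate 1 or 2, and it was 16 in a fit of the 2 groups alone and 11 by DESeq2. The cKO count of 13 was 4 without cKO TAC 7 d replicate 2, 5 without cKO sham replicate 3 and 7 without cKO sham replicate 2. Between genotypes at 7 days, edgeR called 0 of the 37 and 0.257% of all tested genes. Of the 37, 9 had an unadjusted p under 0.05 and DESeq2 called 1. Between genotypes after sham, edgeR called 0 of the 37 and 0.0193% of all tested genes. There 1 of the 37 had an unadjusted p under 0.05 and DESeq2 called 0.

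The genotype difference itself was compared between 7 and 3 days, and 13 of the 37 differed by edgeR, 5 in the positive and 8 in the negative direction. Of all tested genes, 21% differed in this comparison. With library sizes alone, where the median of all genes was 0.32, the split was 7 and 5. For Rdh5 the genotype difference moved by -1.54 ± 0.29 log2 units, from higher in cKO at 3 days to 2.62 ± 0.597 CPM in cKO against 4.04 ± 0.516 CPM in ctrl at 7 days (SD, n = 3; edgeR adjusted p = 0.00501). It moved the same way for Dhrs4 (-0.93 ± 0.19, edgeR adjusted p = 0.00690), Rxrg (-1.45 ± 0.36, edgeR adjusted p = 0.0129) and Rdh14 (-0.90 ± 0.23, edgeR adjusted p = 0.0136). The count was 7 without replicate 3 of ctrl TAC 3 d, replicate 2 of ctrl TAC 7 d or replicate 2 of cKO TAC 7 d, 8 without ctrl TAC 7 d replicate 3, and 5 in a fit of the 4 TAC groups alone.

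In rat myocytes ATF4 was given in excess. Atf4 was at 309, 272 and 247 FPKM with adGFP and 2728, 2473 and 2487 FPKM with adATF4. Differences were taken as log2(FPKM + 1), so those of genes with low values are understated. Aldh1a2, the retinoic acid producer, was at 18.6, 21.0 and 19.3 FPKM with adGFP and 5.68, 6.68 and 5.82 FPKM with adATF4. The groups lay far apart, with a difference of -1.55 ± 0.13 (SE; limma adjusted p = 8.16e-06). Dhrs3, which returns retinal to retinol, was at 9.91, 8.95 and 8.76 FPKM with adGFP and 3.16, 3.54 and 3.91 FPKM with adATF4, again with no overlap and a difference of -1.17 ± 0.15 (limma adjusted p = 0.000130).

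Rdh10, the enzyme of the opposite step, was at 6.71, 8.68 and 5.54 FPKM with adGFP and 8.71, 9.61 and 9.55 FPKM with adATF4. The ranges just failed to touch, and the difference of 0.38 ± 0.17 did not pass (limma adjusted p = 0.0836); without adGFP replicate 2 it was 0.53 (limma adjusted p = 0.0336). Rarb was at 5.93, 4.86 and 4.73 FPKM with adGFP and 5.53, 6.14 and 5.35 FPKM with adATF4, overlapping, with a difference of 0.12 ± 0.16 (limma adjusted p = 0.566). Aldh1a1 was at 1.26, 1.68 and 1.99 FPKM against 1.14, 1.58 and 1.02 FPKM, also overlapping (-0.23 ± 0.20, limma adjusted p = 0.347). Cyp26b1 was at 0.986, 0.399 and 0.662 FPKM with adGFP and 0.646, 0.330 and 0.586 FPKM with adATF4, below the filter. Crabp2 was at 0.854, 1.73 and 0.372 FPKM with adGFP, and with adATF4 it was listed at 0 in replicate 1 and at 0.777 and 0.173 FPKM in the others. Stra6 was listed at 0 in adGFP replicates 1 and 2 and at 0.268 FPKM or less elsewhere.

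**Figure D5:**
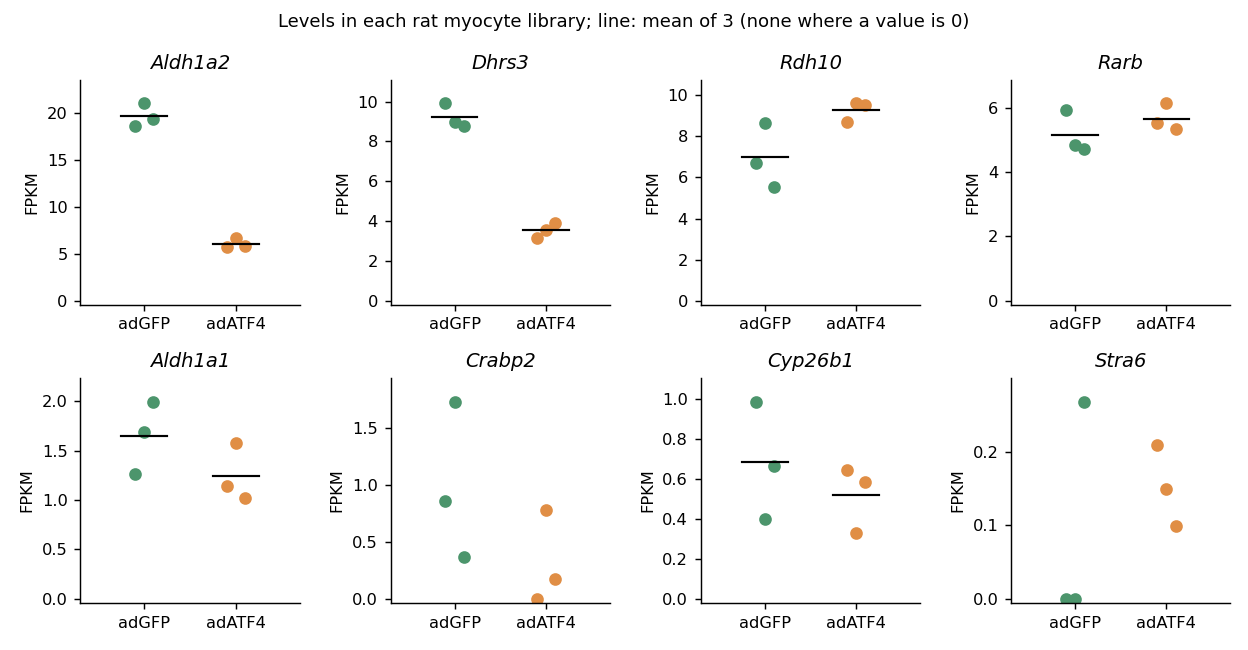
FPKM of the 8 genes in each rat myocyte library with adGFP (green) and adATF4 (orange), on linear axes whose upper ends differ; points are libraries and lines the mean of 3, left out where a library is listed at 0. Aldh1a2 (18.6 to 21.0 against 5.68 to 6.68) and Dhrs3 (8.76 to 9.91 against 3.16 to 3.91) separate the groups.

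So 2 of the 5 tested members were called in the rat cells, both lower with adATF4, where limma called 50.6% of the 10571 tested genes. Of the 58 other retinoid genes 50 had a rat row, 35 were tested, and 5 were higher and 19 lower, with a median of -0.57 over the 35 against -0.04 over all genes. The receptor Rxrg fell from 6.37 ± 0.225 to 0.676 ± 0.0935 FPKM (SD, n = 3; difference -2.14 ± 0.16, limma adjusted p = 3.96e-06), and Lpl, the lipoprotein lipase, from 193 ± 8.58 to 86.4 ± 2.94 FPKM (-1.15 ± 0.083, limma adjusted p = 2.41e-06). The retinal dehydrogenase Aldh1a3 fell from 9.77 ± 0.586 to 1.67 ± 1.04 FPKM (-2.08 ± 0.25, limma adjusted p = 6.97e-05), and Meis1, a homeobox gene, from 24.2 ± 1.31 to 11.3 ± 0.320 FPKM (-1.04 ± 0.11, limma adjusted p = 4.45e-05). By role, 2 of 2 other retinal oxidising enzymes, 3 of 4 storage genes, 5 of 9 receptors and cofactors, 4 of 10 responding genes and 3 of 5 oxidoreductases fell, while 3 of 5 carriers rose and 2 fell. Among the responding genes 1 rose, Tgm2, a transglutaminase (0.99 ± 0.12, limma adjusted p = 8.11e-05), and among the oxidoreductases 1 rose, Dhrs4 (0.33 ± 0.12, limma adjusted p = 0.0415).

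Markers of several cell types were also summed in the rat cultures. The labels name only ventricular myocytes, and bulk marker levels do not establish which cells were present. Fibroblast markers summed to 563 to 613 FPKM under adGFP but 289 to 295 FPKM under adATF4, activated fibroblast markers to 731 to 744 and 317 to 324 FPKM, and atrial myocyte markers to 3381 to 4179 and 1068 to 1304 FPKM. Ventricular myocyte markers summed to 23745 to 25557 FPKM and 21757 to 21903 FPKM, and by limma 1 of these 8 was higher and 4 were lower. Of the fibroblast markers 1 of 8 was listed at 0 in some library of each group. Sums were also lower under adATF4 for endothelial markers, at 37.0 to 42.8 and 19.4 to 23.1 FPKM, for macrophage markers, at 56.2 to 58.4 and 30.5 to 37.9 FPKM, and for epicardial and mesothelial markers, at 17.1 to 22.5 and 11.5 to 12.7 FPKM. The sum of smooth muscle and pericyte markers went the other way, at 1481 to 1823 FPKM under adGFP and 2063 to 2391 FPKM under adATF4. The list itself was mixed: by limma 3 of these 8 markers were higher and 3 lower, with a median difference of -0.06. The part of other cell types in the values of Aldh1a2 and Dhrs3 was not tested.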

How the data were processed

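The 8 genes and all lists were chosen with earlier results of these data known. The mouse table holds read counts per gene as the authors deposited them, beside FPKM values, log2 fold changes and adjusted p-values of the authors' own comparisons, per the file headers; the rat table holds the authors' FPKM, and its depth is unknown. The authors' gene lengths in that mouse table are also deposited and were not used. Bowtie 0.12.2 and mm9 are listed, with no role, per the submitters' processing notes; the deposited mouse positions match GRCm38. Neither labels nor headers name the counter or its strand setting. Of the deposited value columns, 6 match no sample and were not used, and 26 rat gene names had become dates.

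Mouse counts were filtered with filterByExpr (15535 genes and 99.91% of counts kept), scaled by TMM and fitted with edgeR 4.0.16 (quasi-likelihood, 1 model of 6 groups) in R 4.3.3. The comparison of genotype differences between 7 and 3 days was added after the data were seen. Rat values were tested with limma 3.58.1 on log2(FPKM + 1), for 10571 genes reaching 1 FPKM in 3 or more libraries. P-values were adjusted by Benjamini-Hochberg over all tested genes, with a threshold of 0.05, and SE is the fold change over the square root of F (mouse). The scripts were tested on simulated data. Counts of libraries of a group differed by more than sampling noise (chi-square per degree of freedom from 7.09 to 147). Some genes that enter the counts are not reported here by name. Named were all 8 genes, up to 5 other retinoid genes per comparison with the smallest adjusted p, and the 3 genes of most like pattern. Alternatives were RLE scaling, library sizes alone, no filter, DESeq2 1.42.0, the replicate block, a fit of the compared groups alone, and leaving out libraries; for rat values also another pseudocount and no filter. The limit of 3 counts covers counting error only. The SE values come from the fitted models and include the estimated variation between libraries.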

Additional observations from a re-analysis of the deposited data

Results flagged for a closer look

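Listed are retinoid genes whose genotype difference (cKO minus ctrl, log2) or TAC response differed between stages or genotypes, either by the test of that difference or because both pairs of groups stood apart without overlap in opposite directions. All values are edgeR estimates with adjusted p, the comparisons share libraries, and the contrast between 7 and 3 days was added after the data were seen.

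From sham to 3 days of TAC the genotype difference of Cyp26b1 went from -2.21 to 1.73, a difference of 3.93 (adjusted p = 0.0529), and that of Aldh1a2 from 0.98 to -1.75, a difference of -2.73 (adjusted p = 0.0693). For Adh5 it went from -0.11 to 0.32, a difference of 0.43 (adjusted p = 0.118), which is the same 0.43 by which its 3-day response in cKO (0.09) and ctrl hearts (-0.34) differed. For Dhrs4 it went from -0.09 to 0.54, a difference of 0.63 (adjusted p = 0.0977). By edgeR these 4 genes missed the threshold for the difference.

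From 3 to 7 days the genotype difference moved upward for Aldh1a2 by 2.45 (adjusted p = 0.0155), Rai14 by 1.60 (adjusted p = 0.0384), Rdh11 by 1.14 (adjusted p = 0.0296), Fabp5 by 1.00 (adjusted p = 0.0172) and Rbp7 by 0.88 (adjusted p = 0.0484), by edgeR. It moved downward for Rdh5 (-1.54, adjusted p = 0.00501), Rxrg (-1.45, adjusted p = 0.0129), Retsat (-1.27, adjusted p = 0.0204), Lpl (-1.04, adjusted p = 0.0425), Dhrs4 (-0.93, adjusted p = 0.0069), Rdh14 (-0.905, adjusted p = 0.0136), Adh5 (-0.505, adjusted p = 0.0222) and Rxrb (-0.42, adjusted p = 0.0378), by edgeR. Retsat, Rdh11, Rai14 and Rbp7 are outside the rule for named genes and appear here because their values met this criterion. Rxrb and Lpl were named under that rule in other comparisons.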

How the results depend on the processing

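Over single members, 799 values kept direction and side of the threshold, 26 passed it newly, 24 lost it and 59, all of them uncalled, changed sign. With library sizes alone (median of all genes 0.23 at 3 days of TAC in ctrl, -0.20 between genotypes at 3 days, 0.10 at 7 days, 0.14 at 7 days in cKO, -0.25 for the 3-day interaction and 0.32 for 7 against 3 days), 1 member was called at 7 days in cKO, 2 in the 3-day interaction and 2 for 7 against 3 days, and 1 other retinoid gene in the 3-day interaction. The sign changes were, between genotypes at 3 days, Rarb -0.0027 and Dhrs3 -0.038; Rdh10 0.069 at 3 days in ctrl; Aldh1a1 0.10 at 7 days in cKO; Rarb -0.22, Dhrs3 -0.0095 and Rdh10 -0.045 in the 3-day interaction; and Dhrs3 0.31 and Rdh10 0.10 for 7 against 3 days.

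Without the count filter, edgeR called 1 member after sham, and 2 and 1 between genotypes at 3 and 7 days. It called 2 and 1 in the interactions, and 3 for 7 against 3 days. At 7 days in cKO it newly called Cyp26b1. Of the other genes it called 6 between genotypes at 7 days, 1 at 3 days in cKO, and 8 and 1 in the interactions. DESeq2 called 2 members in the 3-day interaction and 2 for 7 against 3 days, and of the others 1 between genotypes at 7 days, 11 at 7 days in ctrl and 5 in the 3-day interaction. With the replicate block, 1 member was called at 7 days in cKO and 2 for 7 against 3 days. Deviations of same-numbered libraries had r over 0.1 in 6 of 45 mouse pairs (highest 0.239) and in 2 of 3 rat pairs (highest 0.218). The 3 rat pairs are too few to decide whether equal numbers mark a pairing. The main fits did not pair libraries by number. The rat block gave 2 members and 24 others. Rdh10 in the 7-day interaction was -0.0059 with RLE, -0.0039 without the filter, -0.0058 by DESeq2 and -0.0023 with the block. In fits of the compared groups alone, 0 members were called between genotypes at 3 days and 0 for 7 against 3 days, and of the others 0 between genotypes at 3 days, 8 and 16 at 3 and 7 days in ctrl and 5 for 7 against 3 days. With both TAC 3 d libraries that stood apart left out (replicate 3 of ctrl, replicate 2 of cKO), 0 members were called in each of those 2 comparisons, and of the others 0, 11 at 3 days in ctrl and 8; Aldh1a1 was 0.14 between genotypes and -0.023 in ctrl at 3 days, and Rarb -0.056 in the 3-day interaction. The cause was not tested.

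Leaving out 1 library at a time, members called ranged from 0 to 1 between genotypes at 3 days, 1 to 3 at 7 days in ctrl, 1 to 2 at 7 days in cKO, 0 to 2 in the 3-day interaction, 1 to 2 for 7 against 3 days, and 2 to 3 in the rat cells. Other genes called ranged from 2 to 15, 1 to 5, 4 to 13, 0 to 9, 7 to 16 and 19 to 22 in the same order, and from 10 to 18 at 3 days in ctrl. Sign changes gave these ranges: Rdh10 -0.050 to 0.076 after sham, -0.066 to 0.13 between genotypes at 7 days, -0.062 to 0.19 at 3 days in cKO and -0.078 to 0.12 in the 7-day interaction; Rarb -0.072 to 0.43 after sham, -0.39 to 0.013 at 3 days in cKO, -0.42 to 0.11 at 7 days in ctrl, -0.14 to 0.26 at 7 days in cKO, -0.21 to 0.29 and -0.093 to 0.42 in the interactions and -0.079 to 0.40 for 7 against 3 days; Aldh1a1 -0.023 to 0.18 at 3 days in ctrl, -0.36 to 0.031 between genotypes at 3 days and -0.16 to 0.048 at 7 days in cKO; Aldh1a2 -0.60 to 0.33 in the 7-day interaction; Dhrs3 -0.16 to 0.082 for 7 against 3 days; Cyp26b1 -0.48 to 0.17 between genotypes at 7 days. Stra6 and Crabp2, at 0 to 13 counts, were too shallow to test.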
